A study of Homo sapiens with 2 samples.

Results

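The genes described here are the cytochrome P450 (CYP) genes of a table that compares HES2 cells infected with a Tfcp2l1 knockdown lentivirus, which carries a short hairpin RNA (shRNA), and HES2 cells infected with a scramble lentivirus. HES2 is an established human embryonic stem cell line. The CYP genes were chosen by symbol (CYP, a family number, a subfamily letter and a gene number) among the rows of the authors' deposited table, and 10 of its 2005 genes matched, with CYP26A1 as the main gene. Every row of that table shows a change of at least 2-fold and, in the authors' deposited table, a false discovery rate of at most 0.000990, so having a row rests on the difference between these same libraries. The size and direction of every difference below are therefore a description, and no test of the conditions is attached to them. Both cultures grew for 3 passages in medium with 10% KSR (a serum replacement), 10 ng/ml Activin A and 10 ng/ml FGF2. With 1 library in each group, differences have no replicate check and compare these 2 libraries. Whether 1 or several hairpin sequences or clones were used is not given in the sources used here. Levels are in FPKM (fragments per kilobase of gene length, scaled to library depth), ratios are knockdown over scramble, and log2 ratios carry a pseudocount of 0.1 FPKM.

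Cytochrome P450 enzymes are heme proteins that insert an oxygen atom into small lipophilic molecules. The CYP26 enzymes hydroxylate all-trans retinoic acid and so start its clearance, which in vertebrate embryos keeps retinoic acid low where body regions are being patterned. CYP26A1 is itself a direct retinoic acid target in many cell types, and in mouse and zebrafish embryos it is transcribed during gastrulation. Other family members make or break down steroids, bile acids and vitamin D, or oxidise foreign compounds.

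CYP26A1 was the CYP gene with the largest difference. It stood at 77.0 FPKM in the knockdown library, against 2.59 FPKM in the scramble library. About 3588 knockdown reads and 125 scramble reads lay behind these levels, a ratio of 29.7 with an exact (Clopper-Pearson) 95% interval of 24.8 to 35.8 that covers counting error only. The log2 ratio was 4.84, and the authors' deposited table gives 4.89 without a pseudocount. The reads of CYP26A1 were taken from its FPKM, because its deposited p-value is printed as 0. Among the 2005 genes of the table, CYP26A1 had rank 30 by log2 ratio, counted from the highest. By level it had rank 42 in the knockdown library and rank 808 in the scramble library.

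The promoter of CYP26A1 is shown because it is a textbook retinoic acid responsive promoter. RefSeq places 2 starts for CYP26A1 on chromosome 10 (GRCh38.p14, plus strand), 418 bases apart. The 250 bases before the downstream start are chr10:93073643-93073892. Those of CYP26B1, the other CYP26 gene in the table, are given for comparison and are chr2:72147863-72148112 on the minus strand. Both read 5′ to 3′ toward the gene, and capitals mark 2 copies of the hexamer AGTTCA on the opposite strand with 5 bases between them.
CYP26A1: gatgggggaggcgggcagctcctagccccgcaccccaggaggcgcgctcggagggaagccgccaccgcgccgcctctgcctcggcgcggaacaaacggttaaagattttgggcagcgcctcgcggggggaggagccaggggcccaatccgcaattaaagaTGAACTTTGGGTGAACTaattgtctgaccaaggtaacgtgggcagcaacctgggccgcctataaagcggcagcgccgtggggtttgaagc
CYP26B1: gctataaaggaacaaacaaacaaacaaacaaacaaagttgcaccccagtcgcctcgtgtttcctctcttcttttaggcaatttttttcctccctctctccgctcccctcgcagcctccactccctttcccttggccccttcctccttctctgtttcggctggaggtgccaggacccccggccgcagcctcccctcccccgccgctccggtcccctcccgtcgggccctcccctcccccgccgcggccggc

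The marked stretch lies 74 to 90 bases before the downstream CYP26A1 start (chr10:93073803-93073819), and on the minus strand it reads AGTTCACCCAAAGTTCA. The window before the upstream start does not hold this repeat. A direct repeat of AGGTCA or AGTTCA with 5 bases between the copies is the classical binding site of retinoic acid receptors paired with retinoid X receptors. Searched on both strands, such a repeat was found in 5 of 35116 RefSeq windows of 250 bases (0.0142%), and CYP26A1 was the only gene of the deposited table among them. The same repeats with 2 bases or 1 base between the copies were in 0.00570% and 0.0399% of windows and in no window of a CYP member. A single AGGTCA or AGTTCA, which the repeats contain, was in 19.7% of all windows and in 3 of the 8 CYP windows (CYP26A1, CYP27A1 and CYP2B6). The letters TATAAA were in 10.7% of windows and in 5 of the 8 CYP windows, 26 to 31 bases before the downstream start in CYP26A1. The tandem CCAGNNNNNNCCAG, a form of the motif known for TFCP2L1 in mouse embryonic stem cells, was in 3.27% of windows and in 1 CYP window. That match, CCAGGTGTTCCCAG, lies 223 to 236 bases before the CYP1A1 start (chr15:74725751-74725764, on the strand of the gene, which is the minus strand). These matches describe letters in a window, and repeats of hexamers other than AGGTCA and AGTTCA were not searched. Windows were at hand for 7 of the 10 CYP genes, all but CYP1B1, CYP27B1 and CYP2F1, with 2 windows for CYP26A1.

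**Figure D1:**
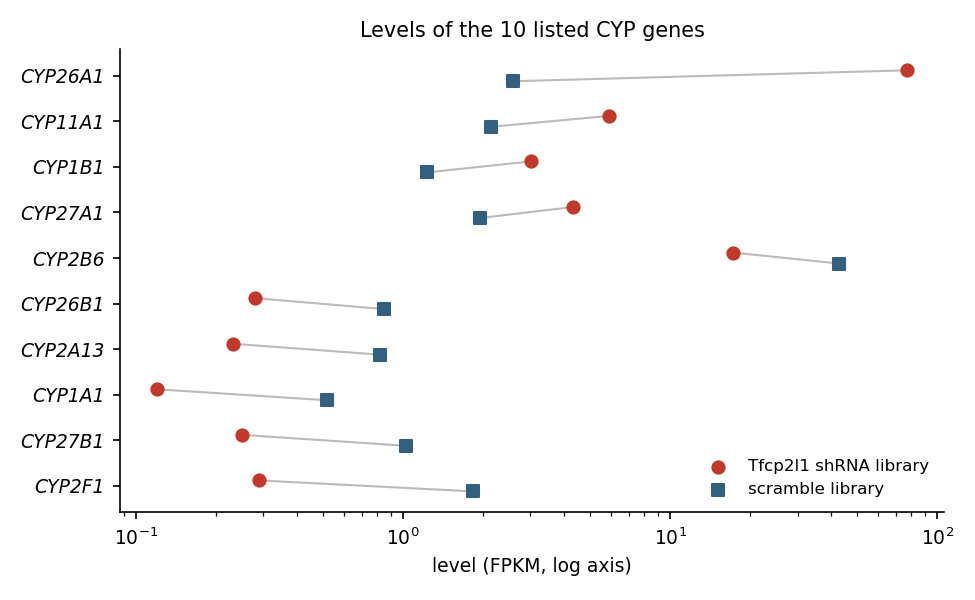
Level of each listed CYP gene on a log FPKM axis in the Tfcp2l1 shRNA library (red circles) and the scramble library (blue squares), 1 library each, ordered by log2 ratio. CYP26A1 is the highest point of the knockdown library at 77.0 FPKM and CYP2B6 that of the scramble library at 42.8 FPKM.

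Of 55 protein-coding genes in RefSeq whose symbols match the family pattern, the 10 with a row are 18.2%. Over all genes the authors tested, inferred to be 18489, the listed ones are 10.8%, with 5.86% higher and 4.98% lower. How many of the other 45 CYP genes were tested is unknown, and nothing is said here about their levels. Of the 10, 4 were higher in the knockdown library (CYP26A1, CYP11A1, CYP1B1 and CYP27A1) and 6 were lower (CYP2B6, CYP26B1, CYP2A13, CYP1A1, CYP27B1 and CYP2F1). By a rule of size, at least 2-fold and at 1 FPKM or more in a library, all 4 were counted as higher and 3 as lower (CYP2B6, CYP27B1 and CYP2F1). With a pseudocount of 1 FPKM, CYP1B1, CYP27A1 and CYP27B1 were no longer at 2-fold, so 2 were higher and 2 lower. Over all listed genes the same rule counted 40.8% as higher and 35.4% as lower. Log2 ratios had a median of -1.31 over the 10 CYP genes and 1.01 over all listed genes, and both medians follow from a table without small changes. Over the 7 CYP genes at 1 FPKM or more it was 1.11, of the opposite sign.

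**Figure D2:**
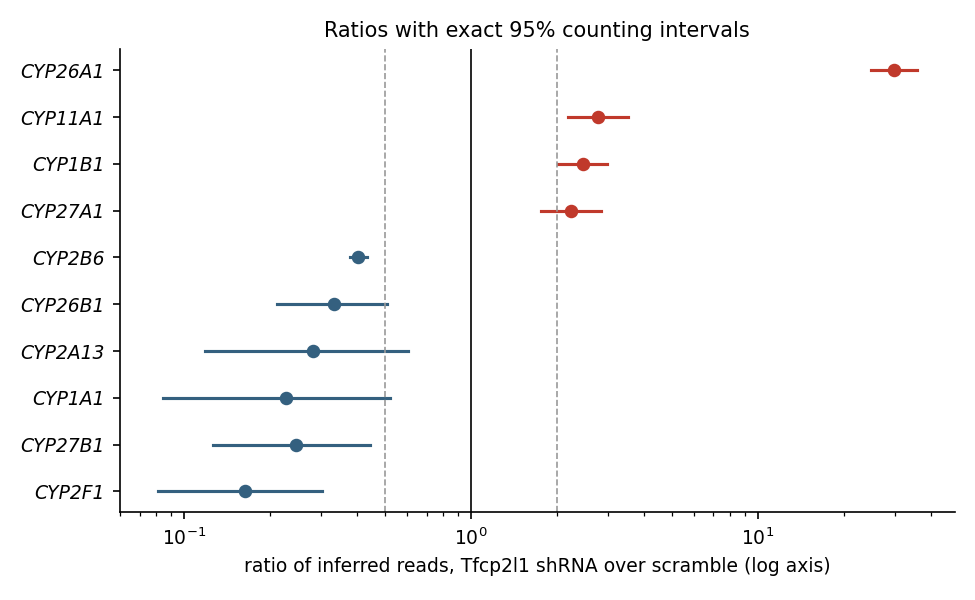
Ratio of inferred reads, Tfcp2l1 shRNA over scramble, for each listed CYP gene on a log axis, with exact 95% counting intervals as bars. The solid line is a ratio of 1 and the dashed lines are 2-fold changes. The interval of CYP26A1 starts at 24.8, and the next higher gene, CYP11A1, ends at 3.52.

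The make-up of the listed CYP transcripts differed between the libraries. Their summed level was 108.7 FPKM in the knockdown library, against 55.8 FPKM in the scramble library. CYP26A1 was 70.8% of that sum in the knockdown library, against 4.64% in the scramble library. CYP2B6 was 15.9% in the knockdown library, against 76.8% in the scramble library. Without these genes the other 8 summed to 14.4 FPKM in the knockdown library and 10.4 FPKM in the scramble library. CYP26A1 was 4.46 times as high as CYP2B6 in the knockdown library, whereas CYP2B6 was 16.5 times as high as CYP26A1 in the scramble library.

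**Figure D3:**
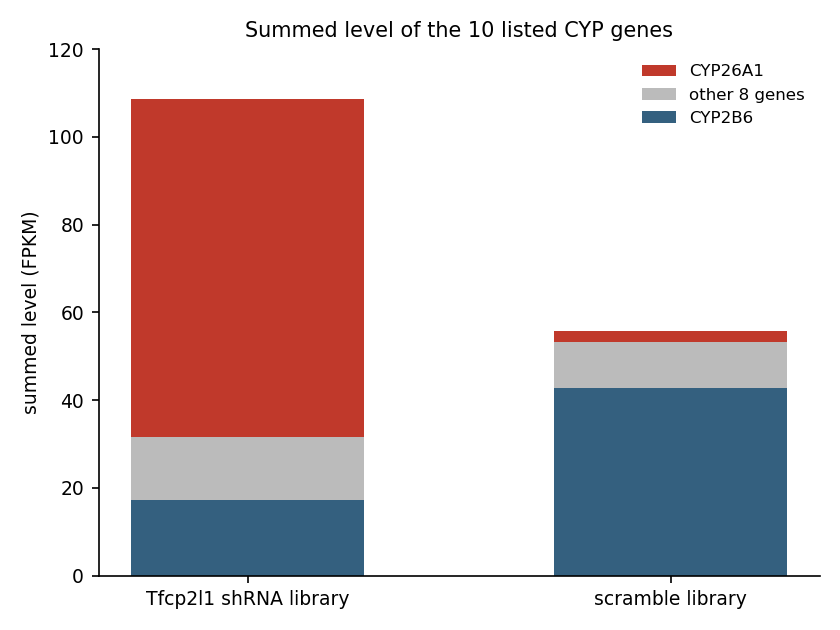
Summed FPKM of the 10 listed CYP genes in each library, 1 library per bar and no error bars, split into CYP26A1 (red), CYP2B6 (blue) and the other 8 genes (grey). The bars reach 108.7 FPKM in the Tfcp2l1 shRNA library and 55.8 FPKM in the scramble library.

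The CYP26 genes of the table went opposite ways. CYP26B1, which also clears retinoic acid and in mouse protects fetal male germ cells from it, measured 0.28 FPKM in the knockdown library and 0.85 FPKM in the scramble library. Its 29 knockdown reads and 90 scramble reads gave a ratio of 0.333 (interval 0.211 to 0.511). CYP26A1 was thus 275 times as high as CYP26B1 per length in the knockdown library, and 3.05 times as high in the scramble library. CYP26C1, the remaining gene of the subfamily and the protein-coding neighbour of CYP26A1 on chromosome 10, had no row. The CYP1 and CYP27 families each had 1 gene higher and 1 lower as well.

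CYP1B1, which oxidises estrogens, retinoids and polycyclic hydrocarbons, measured 3.01 FPKM in the knockdown library and 1.23 FPKM in the scramble library. Its ratio was 2.45 on 348 knockdown and 147 scramble reads (interval 2.01 to 2.99). CYP1A1, the best known target of the aryl hydrocarbon receptor, measured 0.12 FPKM in the knockdown library and 0.52 FPKM in the scramble library. These are 7 and 32 reads, and CYP1A1 was thus 4.42-fold lower (interval 1.92 to 11.9). The level of CYP1A1 was low in both libraries, and its interval includes 2-fold.

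CYP27A1, the mitochondrial sterol 26-hydroxylase of bile acid synthesis, measured 4.33 FPKM in the knockdown library and 1.95 FPKM in the scramble library. Its ratio was 2.22 on 228 knockdown and 106 scramble reads (interval 1.76 to 2.83), and it was the one higher CYP gene whose interval includes 2. CYP27B1, which makes the active form of vitamin D, measured 0.25 FPKM in the knockdown library and 1.03 FPKM in the scramble library. It was 4.07-fold lower on 14 knockdown and 59 scramble reads (interval 2.25 to 7.90). CYP11A1, which cuts the side chain of cholesterol as the first step of steroid synthesis, measured 5.92 FPKM in the knockdown library and 2.14 FPKM in the scramble library. Its ratio was 2.76 on 259 knockdown and 97 scramble reads (interval 2.18 to 3.52). These are the 3 mitochondrial CYP enzymes among the members, 2 of them higher and 1 lower.

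The remaining lower members are neighbours. CYP2B6, CYP2A13 and CYP2F1 lie next to each other among the protein-coding genes of a CYP2 cluster on chromosome 19, in that order. CYP2B6, a xenobiotic hydroxylase known from liver, measured 17.3 FPKM in the knockdown library and 42.8 FPKM in the scramble library, where it had rank 53 by level among all listed genes. It was 2.47-fold lower on 1140 knockdown and 2915 scramble reads (interval 2.31 to 2.65). CYP2A13, a carcinogen-activating enzyme of the airway, measured 0.23 FPKM in the knockdown library and 0.82 FPKM in the scramble library, 3.55-fold lower on 9 and 33 reads (interval 1.66 to 8.42). CYP2F1, a further airway enzyme, measured 0.29 FPKM in the knockdown library and 1.83 FPKM in the scramble library. It was 6.12-fold lower on 12 knockdown and 76 scramble reads (interval 3.31 to 12.4), the lowest ratio among the CYP genes. Of the 6 protein-coding genes of the cluster these 3 had a row, while CYP2A6, CYP2A7 and CYP2S1 had none. Over all tested genes 10.8% had a row, 5.86% higher and 4.98% lower. How many of the 6 were tested is unknown, and a regional change was not tested. Summed over the 3, the level was 17.8 FPKM in the knockdown library and 45.5 FPKM in the scramble library. CYP2B6 made up most of both sums.

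Another 2 loci of the table, without a gene symbol and so outside the naming rule, carry an annotation to the CYP2F subfamily by the authors. The one whose best protein match is CYP2F1 measured 1.20 FPKM in the knockdown library and 7.10 FPKM in the scramble library, 5.89-fold lower on 23 and 140 reads (interval 3.77 to 9.59). The one matched to a CYP2F1-like protein of the bonobo was at the floor of 0.01 FPKM in the knockdown library and at 1.62 FPKM in the scramble library, about 26 reads. With no knockdown read, it was 8.38-fold lower if the knockdown library is set to a floor of 3 reads, and its interval runs from 6.34-fold upward.

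Several of these genes share sequence with other loci, so reads could be split or joined in counting, and the strand setting is not given in the sources used here. Of the 31-base words in the longest GENCODE transcript, 43.2% of CYP2A13 occur in another gene, mostly CYP2A6. For CYP2B6 this is 26.8%, mostly the pseudogene CYP2B7P, and for CYP2F1 it is 17.1%, the pseudogene CYP2F2P. For CYP26A1 it is 32.6%, all in AL358613.3, a noncoding locus that overlaps CYP26A1 on the same strand. CYP11A1 (14.6%) and CYP1B1 (11.3%) share words with antisense genes that overlap them. CYP26B1, CYP27A1 and CYP27B1 share none, and CYP1A1 shares 1.05%. Of the list genes named further below, GSTA1 (49.0%), NQO1 (21.2%) and STAR (14.5%), among others, share words too. The levels of the genes that share words are uncertain, and the share does not say by how much.

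**Figure D4:**
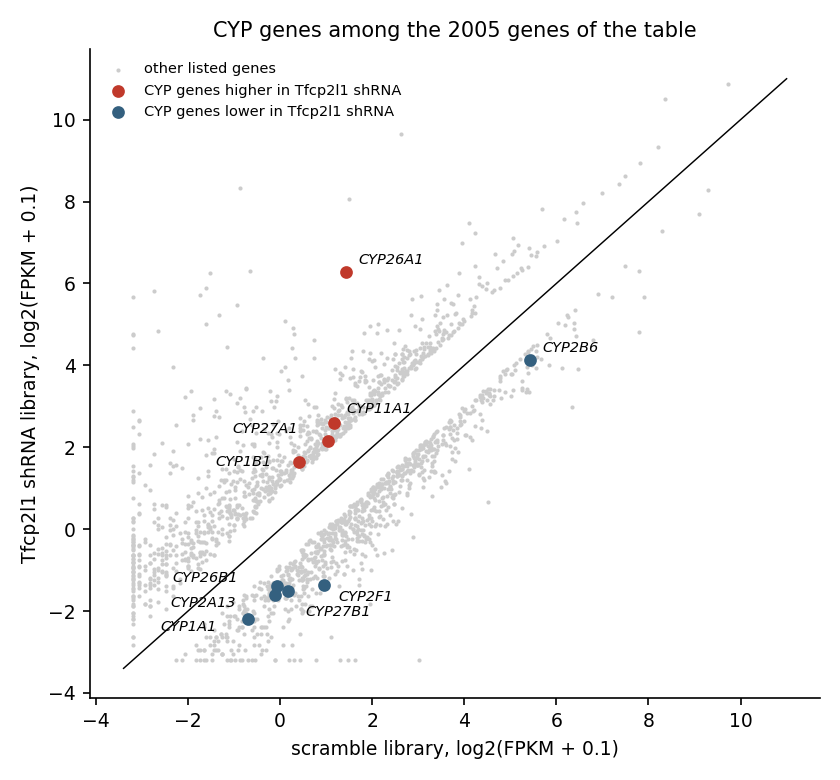
Each of the 2005 genes of the table as a point, with log2(FPKM + 0.1) in the scramble library on the x axis and in the Tfcp2l1 shRNA library on the y axis. The line marks equal levels, and the empty band along it is the authors' 2-fold limit. CYP26A1 stands apart from the other CYP genes, and 5 of the 6 lower ones are at 0.29 FPKM or less in the knockdown library.

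Retinoic acid is made from retinol by retinol and retinal dehydrogenases, carried by binding proteins and read by RAR and RXR receptors. Of 51 genes of retinoid metabolism and reception, 9 had a row (17.6%), 6 higher and 3 lower, CYP26A1 and CYP26B1 included. Over all tested genes 10.8% had a row, 5.86% higher and 4.98% lower, and how many of the 51 were tested is unknown. By the rule of size 5 of the 9 were higher and 1 lower, beside 40.8% and 35.4% of all listed genes. Over the 9, log2 ratios had a median of 1.74, beside 1.01 over all listed genes. STRA6, the membrane receptor that takes up retinol, measured 17.8 FPKM in the knockdown library and 5.33 FPKM in the scramble library (ratio 3.30, interval 2.92 to 3.72). STRA6 lies near CYP11A1 on chromosome 15, with 1 protein-coding gene between them.

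The dehydrogenases of the pathway had low levels or a small difference. ALDH1A2, which makes retinoic acid in the mouse trunk mesoderm, measured 0.50 FPKM in the knockdown library and 0.05 FPKM in the scramble library, on 39 and 4 reads (ratio 10.1, interval 3.64 to 38.9). DHRS3, which turns retinal back into retinol, measured 4.25 FPKM in the knockdown library and 8.77 FPKM in the scramble library (ratio 0.484, interval 0.395 to 0.591). RDH12, a retinal reductase known from photoreceptors, measured 0.25 FPKM in the knockdown library and 0.80 FPKM in the scramble library. Of the receptors and their partners, RXRG measured 1.44 FPKM in the knockdown library and 0.02 FPKM in the scramble library, on 70 reads and 1 read (ratio 72.4, interval 12.6 to 2900). NRIP1, a corepressor of nuclear receptors, measured 5.76 FPKM in the knockdown library and 1.65 FPKM in the scramble library (ratio 3.47, interval 3.05 to 3.96). RARA, RARB, RARG, RXRA and RXRB had no row.

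Of 38 genes known as retinoic acid targets in various cell types, 14 had a row (36.8%), 12 higher and 2 lower, against the same 10.8%, 5.86% and 4.98% over all tested genes. By the rule of size 10 of the 14 were higher and 2 lower, beside 40.8% and 35.4% of all listed genes. Their log2 ratios had a median of 1.73, beside 1.01 over all listed genes. This list shares CYP26A1, STRA6, NRIP1 and DHRS3, among others, with the one before. The transcription factors GATA6 (28.7 FPKM in the knockdown library, 0.06 FPKM in the scramble library) and GATA4 (4.12 and 0.15 FPKM, in the same order) are also endoderm genes. CDX1, a caudal homeobox gene, measured 3.82 FPKM in the knockdown library with no scramble read. It was 51.0-fold higher if the scramble library is set to the floor of 3 reads, and its interval runs from 41.0-fold upward. EGR1, an immediate early gene, measured 6.20 FPKM in the knockdown library and 2.10 FPKM in the scramble library, and TBX1, a pharyngeal T-box gene, at 2.51 FPKM in the knockdown library and 1.07 FPKM in the scramble library. HOXB2 measured 0.54 FPKM in the knockdown library and 0.08 FPKM in the scramble library, on 19 and 3 reads (ratio 6.55, interval 1.93 to 34.6). FOXA1 measured 0.34 FPKM in the knockdown library and 0.04 FPKM in the scramble library, on 26 and 3 reads (ratio 8.96, interval 2.75 to 46.3). TGM2, a transglutaminase, was lower, at 0.38 FPKM in the knockdown library and 1.26 FPKM in the scramble library (ratio 0.299, interval 0.206 to 0.425). HOX genes of the list other than HOXB2 (among them HOXA2 to HOXA5, HOXB1, HOXB3, HOXB4 and HOXD4), RARB and CRABP2 had no row.

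**Figure D5:**
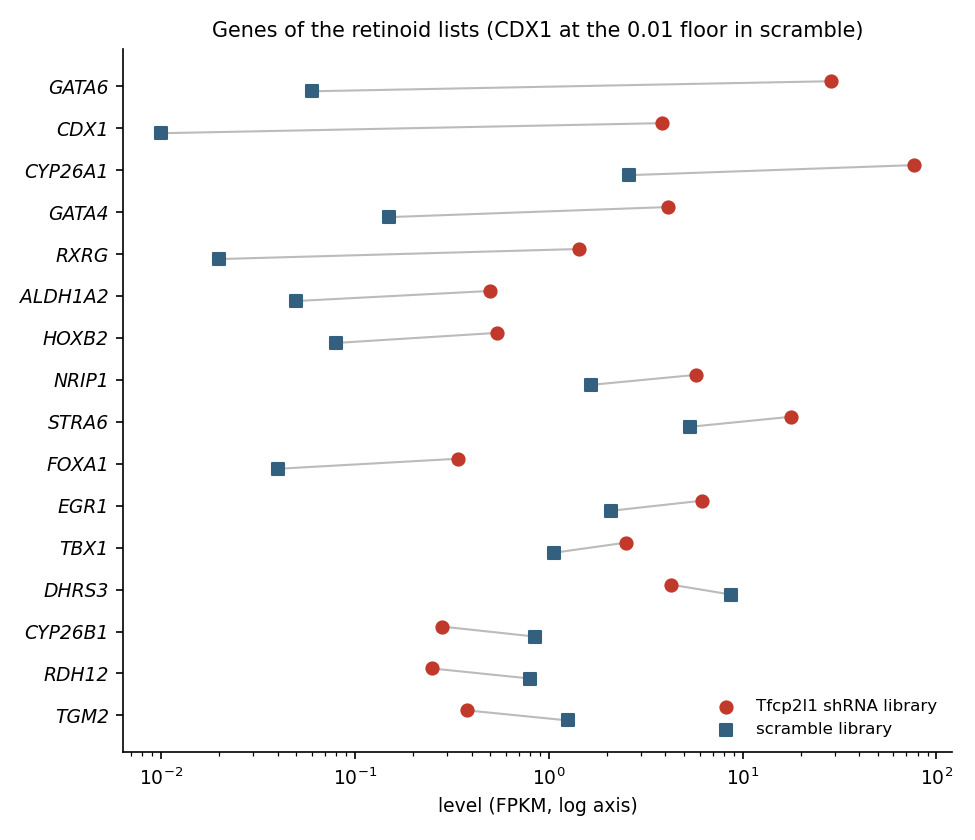
Level of 16 genes of the 2 retinoid lists that have a row, on a log FPKM axis, in the Tfcp2l1 shRNA library (red circles) and the scramble library (blue squares), ordered by log2 ratio. In the knockdown library 12 of those shown are higher and 4 are lower, and CYP26A1 reaches the highest level, 77.0 FPKM.

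Lists around the other CYP enzymes are read against the same background (10.8% of tested genes with a row, 5.86% higher and 4.98% lower), with the number of tested list genes unknown. Of 16 genes that pass electrons to P450 enzymes or handle their heme, HMOX1, the inducible heme oxygenase, was the one with a row (6.25%), at 3.32 FPKM in the knockdown library and 8.43 FPKM in the scramble library (ratio 0.395, interval 0.316 to 0.490). Of 23 genes of the aryl hydrocarbon and xenobiotic response, 5 had a row (21.7%), 4 higher and 1 lower. By the rule of size 3 of the 5 were higher and 0 lower, beside 40.8% and 35.4% of all listed genes. The higher ones beside CYP1B1 were NQO1 (13.3 FPKM in the knockdown library, 6.34 FPKM in the scramble library), ARNT2 (4.68 and 2.0 FPKM, in the same order) and GSTA1, which has 2 scramble reads. The interval of NQO1, 1.85 to 2.38, includes 2-fold. Of 40 steroid, bile acid and sterol genes, 3 had a row (7.50%). FGF19, an intestinal hormone that represses bile acid synthesis, measured 19.2 FPKM in the knockdown library and 5.55 FPKM in the scramble library. STS, steroid sulfatase, measured 0.85 FPKM in the knockdown library and 0.20 FPKM in the scramble library. STAR, which delivers cholesterol to CYP11A1, measured 0.45 FPKM in the knockdown library and 1.11 FPKM in the scramble library, on 27 and 68 reads. It was 2.44-fold lower (interval 1.54 to 3.96, which includes 2-fold), so STAR and CYP11A1 went opposite ways. Of 11 vitamin D genes, CYP27A1 and CYP27B1 were the ones with a row (18.2%). Of 17 eicosanoid genes 4 had a row (23.5%), and all 4 were lower (ALOX15, PLA2G4A, PTGS1 and ALOX5). By the rule of size 3 of them were lower, since ALOX5 stayed under 1 FPKM, beside 35.4% of all listed genes. Their median log2 ratio was -1.86, beside 1.01 over all listed genes, with levels of at most 0.35 FPKM in the knockdown library and 1.40 FPKM in the scramble library.

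Markers of other cell states differed beside CYP26A1, and their part in its level was not tested. Over all tested genes 10.8% had a row, 5.86% higher and 4.98% lower, and how many of these markers were tested is unknown. The marker lists were chosen with earlier results of these data known. All 4 primitive streak markers (T, MIXL1, EOMES and GSC) were higher, with a summed level of 413 FPKM in the knockdown library and 3.48 FPKM in the scramble library. All 4 definitive endoderm markers (SOX17, FOXA2, CXCR4 and HHEX) were higher too, summing to 126 FPKM in the knockdown library and 2.17 FPKM in the scramble library. SOX2 was the one of 5 pluripotency markers with a row, at 86.1 FPKM in the knockdown library and 180 FPKM in the scramble library. This marker alone does not settle the labelled cell type. NES was the one of 3 neuroectoderm markers with a row, at 252 FPKM in the knockdown library and 95.9 FPKM in the scramble library. COL1A1 was the one of 5 fibroblast markers with a row, at 24.4 FPKM in the knockdown library and 110 FPKM in the scramble library. None of 5 hepatocyte markers had a row, while STAR and INHA of 4 markers of steroid-making cells did, both lower. The intervals of STAR and INHA include 2-fold. In such bulk libraries, more cells that carry a transcript and more transcript per cell cannot be told apart. TFCP2L1 itself measured 0.33 FPKM in the knockdown library and 3.19 FPKM in the scramble library, 9.70-fold lower on 69 knockdown and 692 scramble reads (interval 7.56 to 12.6).

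The genes nearest to CYP26A1 in level over the 2 libraries, by distance in log2(FPKM + 0.1), were IL32, LRRN2, GLIPR1L1, FGF8 and ID3. The nearest, IL32, measured 30.9 FPKM in the knockdown library and 3.75 FPKM in the scramble library, a distance of 1.41. ID3, the last of the 5, measured 52.0 FPKM in the knockdown library and 8.25 FPKM in the scramble library, a distance of 1.73. All 5 had lower ratios than CYP26A1, from 5.96 (FGF8) to 8.29 (IL32), and a likeness over 2 libraries is a description of those levels only. On chromosome 10, MYOF, the next protein-coding gene after CYP26A1, measured 4.90 FPKM in the knockdown library and 0.77 FPKM in the scramble library. EXOC6, on the far side of CYP26C1, measured 3.64 FPKM in the knockdown library and 1.43 FPKM in the scramble library. Of the 4 protein-coding genes around CYP26A1, these 2 had a row, and both were higher, beside 10.8% with a row and 5.86% higher over all tested genes. MYOF and EXOC6 were named after their values were seen, and a regional change was not tested.

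The libraries held about 22690000 reads (knockdown) and 23470000 reads (scramble), as inferred from the deposited values. Whole reads that fit both levels and the deposited p-value were found for 9 of the 10 CYP genes, all but CYP26A1.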

How the data were processed

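Per the labels' protocols, 1 ug of Trizol-extracted total RNA per group went into 1 library for the BGISEQ-500. The submitters' processing notes name hg19 and Bowtie 0.12.2. Sources used here do not give the quantifier, strand setting, test or filters. The authors' deposited table holds 2005 genes with levels, log2 ratios, p-values and false discovery rates. Levels were read as FPKM, because the authors' levels, divided by inferred reads, follow gene length, and RPKM cannot be told apart. The search for reads itself uses gene length, so the unit was not checked independently. The lowest deposited FPKM, 0.01, is a floor. The log2 ratio in the deposited table takes knockdown over scramble, with no pseudocount.

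Reads were inferred as whole numbers that fit both levels within rounding plus 2% and the deposited p-value of a 2-library Poisson test (Audic and Claverie) within 0.0002 on its natural log. Such a pair was found for 79.5% of the 1926 genes whose p-value is not printed as 0. On a simulated table of the same size 100% of genes had a pair, and 100% of pairs were those drawn. That table was made with the same Poisson test, so it checks the search and not whether the test holds for the deposited values. Intervals taken on its drawn reads, not on inferred ones, held the true ratio for 95.5% of 200 changed genes. Reads of other genes were estimated from FPKM. Intervals are exact (Clopper-Pearson) 95% intervals of the binomial share and hold for counting error alone, as reads that carry no molecular identifiers may repeat a molecule. The number tested, 18489, is the one that turns the deposited p-values and rates into whole ranks.

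Members and gene lists were chosen with earlier results of these data known. Every CYP gene with a row is named, and so are the retinoid list genes with a row, except some that are not reported here and are still in the counts and medians of their lists. Of other lists up to 4 are named, those with the largest log2 ratios at 1 FPKM or more, and STS, GSTA1, ALOX5, MYOF, EXOC6, the 2 loci without a symbol and the genes under other observations were named after their values were seen. Promoter windows are from RefSeq (GRCh38.p14) and matched by gene ID. Shared words were counted on GENCODE v29 transcripts on either strand. Alternatives were other pseudocounts, minimum levels, folds and ratio sources. Python 3.11.15, numpy 2.4.6, pandas 2.3.3 and scipy 1.17.1 were used.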

Additional observations from a re-analysis of the deposited data

How the results depend on the processing

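No paired analysis was possible because each group has 1 library, so no library could be left out either. The log2 ratio of CYP26A1 was 4.84 and moved to 4.44 with a pseudocount of 1 FPKM. The other 9 CYP genes kept their direction in all 36 alternatives. In 4 of these the value moved by more than the distance from the middle to the end of its counting interval on the log2 scale. All 4 were with a pseudocount of 1 FPKM (CYP1B1 0.85, CYP26B1 -0.53, CYP27B1 -0.70, CYP2F1 -1.13). With that pseudocount CYP1A1 and CYP2A13, which have wide intervals, were at -0.44 and -0.57 in place of -1.49 and -1.48. With a pseudocount of 1 FPKM, 2 CYP genes were at least 2-fold higher in place of 4, and 2 were lower in place of 3. The CYP median was then -0.49 in place of -1.31, the retinoid median was 1.26 in place of 1.74, and 0 retinoid genes were lower in place of 1. With a minimum of 0.5 FPKM or none, 6 CYP genes in place of 3 and 3 retinoid genes were at least 2-fold lower. At 4-fold, 1 CYP gene was higher and 1 lower, and 3 retinoid genes were higher and 0 lower. With the counting interval wholly beyond 2-fold, 0 retinoid genes were lower. Over members at 1 FPKM or more the CYP median reversed to 1.11, because that minimum leaves out 3 lower genes, and the retinoid median was 2.06. Depth limits CYP1A1, CYP2A13 and CYP2F1 most, with 7 to 12 knockdown reads each.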

Other observations

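Among genes with a symbol that the authors annotate to the response to retinoic acid, 9 had a row, none of them a CYP gene, 7 higher and 2 lower in the knockdown library. Of all 2005 listed genes, 1084 were higher and 921 lower. How many tested genes carry the annotation is unknown, since it was read from listed genes alone. This annotation was looked up after values had been seen, and WNT ligands and a Frizzled receptor make up most of it. WNT8A, a WNT ligand of the early posterior embryo, measured 10.3 FPKM in the knockdown library and 0.16 FPKM in the scramble library, on about 416 and 7 reads (ratio 61.5, interval 29.6 to 154). WNT3A measured 2.62 FPKM in the knockdown library and 0.45 FPKM in the scramble library (ratio 5.81, interval 3.94 to 8.80). RET, the receptor for GDNF family ligands, measured 28.8 FPKM in the knockdown library and 5.85 FPKM in the scramble library (ratio 4.93, interval 4.50 to 5.41). WNT8B and the neurotrophin receptor gene NTRK3 were the lower ones, at 0.21 and 0.80 FPKM in the knockdown library and at 1.00 and 2.45 FPKM in the scramble library, in that order.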
